A study of Mus musculus with 6 samples.

Results

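Colonies of late reprogrammed cells were set against control fibroblasts, gene by gene, in 4 of the 6 RNA-seq libraries of the series. All 16688 genes that passed an expression filter were tested, of 49315 genes in the count table. Both groups came from the tail tip skin of wild-type mice. The fibroblasts were given control lentiviral vectors and stand for day 0 (2 libraries). The late cells were given CRISPR activation vectors of the SAM kind, were then isolated as colonies, are labelled progenitors and stand for day 22 (2 libraries). The 2 remaining libraries hold early cells at day 7, given the same vectors without colony isolation. They entered the fit to help estimate the spread, and their values are printed where they place a gene. CRISPR activation uses a Cas9 that no longer cuts to bring transcription activators to a gene's own promoter; which genes were targeted was not stated in the labels. Isolating colonies selects cells able to grow out, so reprogramming and colony selection cannot be told apart in the late libraries.

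During heart development, transcription factors of the GATA, T-box, Hand, Nkx and Mef2 families act together in mesodermal progenitors and later switch on the contractile genes of heart muscle. The epicardium, the mesothelial sheet around the heart, carries keratins and Wt1 and gives rise to fibroblasts and mural cells. Tail skin fibroblasts, in contrast, make collagen-rich dermis and keep a posterior Hox code that records where on the body they came from.

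The libraries held 31414965 and 37445443 counts for fibroblasts, and 20172874 and 40122999 for late cells. Levels are counts per 1000000 (CPM) on scaled library sizes, given as replicate 1 then replicate 2, and are not divided by gene length. The floor, 3 counts, equals 0.0842 to 0.142 CPM across the 6 libraries. The fibroblast libraries correlated across genes at r = 0.978 and the late ones at 0.883, while late replicate 1 and early replicate 1 correlated at 0.945 (log2 CPM; genes are not independent replicates). Late replicate 2 stood apart: mitochondrial transcripts took 10.3% of its counts against 1.48% to 2.16% in the other 5 libraries, and adult heart muscle transcripts were abundant in it. Xist was at 54.6 and 0.118 CPM in fibroblasts and at 61.2 and 0.337 CPM in late cells, so replicates of a group were not repeats of the same RNA. Nothing in the labels tells whether replicates were separate animals or cultures. The p-values therefore speak only for the spread among these libraries.

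Between late cells and fibroblasts, 237 genes passed the edgeR quasi-likelihood test at an adjusted p under 0.05, which is 1.42% of the genes tested. Of these, 107 (0.641%) rose and 130 (0.779%) fell in late cells, and 5426 genes had an unadjusted p under 0.05. The number rests on which libraries enter: it was 0 without fibroblast replicate 1 or without fibroblast replicate 2, 603 or 734 without early replicate 1 or 2, 1058 without late replicate 1 and 8 without late replicate 2, and DESeq2 called 4683 genes. For each gene both late libraries were also compared with both fibroblast libraries. A gene is said to agree where the smallest of the 4 differences between a late and a fibroblast library is at least 2-fold. By that rule 2046 genes (12.3%) were higher in both late libraries and 1504 (9.01%) were lower in both. Counts of agreeing list members given below are to be read beside these 2 shares. All 237 called genes agreed in this sense, so every gene called below is one on which both late libraries agree. In 205 of the 237 the 2 late libraries lay within 2-fold of each other. The test favours genes whose libraries lie close within a group, so this agreement is no separate support for the calls. The other 3313 agreeing genes missed the test.

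The late libraries also differed from each other. Late replicate 2 exceeded late replicate 1 more than 4-fold at 1393 genes, and the reverse held at 565 genes. Measured from the fibroblast mean, 1154 genes were more than 4-fold higher and 754 more than 4-fold lower in both late libraries. A rise of that size was seen in late replicate 2 while late replicate 1 stayed within 2-fold at 546 genes, and in late replicate 1 alone at 262. A fall of that size was limited to late replicate 2 at 97 genes and to late replicate 1 at 261.

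**Figure D1:**
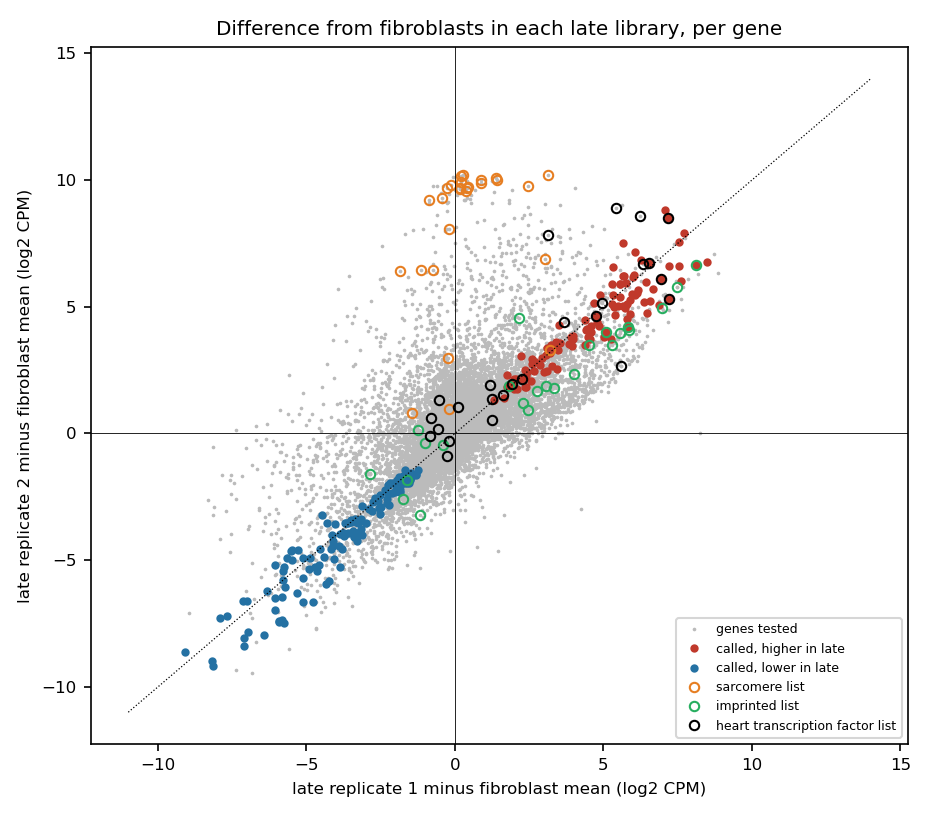
Each point is a gene tested; the x axis gives its difference from the fibroblast mean in late replicate 1 and the y axis in late replicate 2, both in log2 CPM, with the dotted line marking equal differences. The 237 called genes lie near that line, most sarcomere genes lie high in late replicate 2 and near 0 in late replicate 1, and most imprinted genes that are higher lie below the line.

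Large changes are ranked here among called genes with a mean log2 CPM of at least 3 over the 6 libraries. Genes with a lower mean were not ranked, though some of them had larger fold changes. The largest rises in this ranking included those of a membrane scaffold, a sialomucin and a GATA factor. Frmd5, a FERM domain protein that links the membrane to the cytoskeleton (ENSMUSG00000027238, chromosome 2, 121545529 to 121807087, GRCm38), stood at 0.235 and 0.441 CPM in fibroblasts and at 53.6 and 178 CPM in late cells. The groups were far apart, although late replicate 2 was the higher late library (log2 fold change 8.39 ± 0.83 SE, edgeR adjusted p = 0.0349). Podxl, a sialomucin of mesothelial and podocyte surfaces, was at 0.772 and 1.18 CPM in fibroblasts and at 215 and 248 CPM in late cells (7.88 ± 0.76, adjusted p = 0.0349). Ildr2 (chromosome 1, 166254139 to 166316823) shared the smallest adjusted p of the comparison with Npy4r, at 1.24 and 1.15 CPM against 110 and 79.9 CPM (6.31 ± 0.30, adjusted p = 0.0212). Rgs5, a regulator of G protein signalling typical of pericytes, was at 2.08 and 2.38 CPM against 115 and 416 CPM (6.89 ± 0.88, adjusted p = 0.0468). Rgs5 and Frmd5 were more than 3-fold higher in late replicate 2 than in late replicate 1, whereas Podxl and Ildr2 were at similar levels in both. Collagen genes were among them too. Col14a1, a fibril-associated collagen, went from 0.940 and 1.15 CPM to 113 and 57.1 CPM (6.34 ± 0.49, adjusted p = 0.0304), and Gldc, the glycine cleavage enzyme, from 0.537 and 0.441 CPM to 40.3 and 28.2 CPM (6.12 ± 0.85, adjusted p = 0.0485). Serpinb6b, an intracellular protease inhibitor, went from 0.638 and 1.35 CPM to 70.2 and 47.1 CPM (5.87 ± 0.49, adjusted p = 0.0304).

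With the same minimum mean log2 CPM of 3, the largest falls included those of a peptide hormone, a serotonin receptor and several matrix proteins. Cck, which encodes the peptide hormone cholecystokinin (ENSMUSG00000032532, chromosome 9, 121489824 to 121495694), stood at 443 and 336 CPM in fibroblasts and at 1.29 and 0.590 CPM in late cells (log2 fold change -8.71 ± 0.62, edgeR adjusted p = 0.0303). Early cells lay between, at 59.6 and 35.1 CPM. Gm2115, which carries a predicted gene name, came next, at 648 and 637 CPM against 2.17 and 1.21 CPM (-8.58 ± 0.51, adjusted p = 0.0240). Htr1b, a serotonin receptor, was at 253 and 309 CPM against 1.96 and 0.758 CPM (-7.71 ± 0.62, adjusted p = 0.0304), and here early cells were already at 1.78 and 1.18 CPM. Coch, a secreted protein of the extracellular matrix, was at 255 and 385 CPM against 3.54 and 1.21 CPM (-7.09 ± 0.68, adjusted p = 0.0349). Both late libraries were low for all 4 genes, and late replicate 2 was the lower. Thbs2, a matricellular thrombospondin, was at 1683 and 1839 CPM against 12.5 and 18.2 CPM (-6.84 ± 0.83, adjusted p = 0.0465). Col12a1, a collagen of dense connective tissue, was at 2327 and 5191 CPM against 61.3 and 21.2 CPM (-6.51 ± 0.80, adjusted p = 0.0465). Further falls in this ranking were those of Arhgdib, Srpx2, Ccbe1, Mpp1, Il1rl1, Pdgfd, Arsj and Mfap3l. These ran from -5.72 to -4.95 on the log2 scale, with edgeR adjusted p between 0.0304 and 0.0485. Among them Il1rl1 is the receptor of interleukin 33 and Pdgfd a growth factor of mesenchymal cells.

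**Figure D2:**
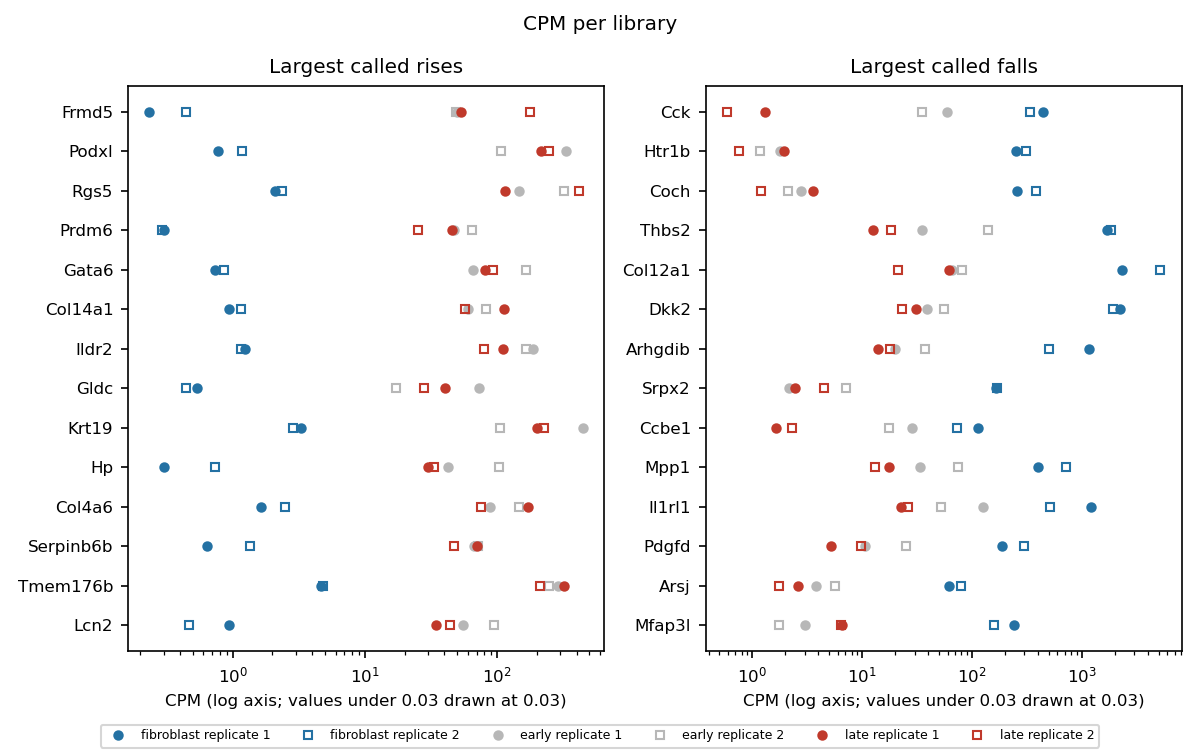
CPM in each of the 6 libraries (log axis) for 14 of the 15 largest called rises and 14 of the 15 largest called falls. Only called genes with a mean log2 CPM of at least 3 were ranked, and genes with a predicted name were left out. Filled circles are replicate 1 and open squares replicate 2 of fibroblasts (blue), early cells (grey) and late cells (red). In every row both late libraries lie clear of both fibroblast libraries, and both early libraries lie between them for 10 of the 14 falls and 1 of the 14 rises.

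Some genes agreed between the late libraries by a wide margin without passing the test, and for some of these the early libraries differed widely from each other. Aldh3a1, an aldehyde dehydrogenase of surface epithelia, was at 4.03 and 3.27 CPM in fibroblasts and at 282 and 290 CPM in late cells, while early cells were at 459 and 67.4 CPM (edgeR adjusted p = 0.0564). Itgbl1 was at 681 and 877 CPM against 6.75 and 4.89 CPM, with 3.25 and 639 CPM in early cells (adjusted p = 0.113). Penk, the precursor of enkephalins, was at 860 and 371 CPM against 5.42 and 1.80 CPM (adjusted p = 0.0646). Igsf10 was at 596 and 987 CPM against 1.46 and 5.50 CPM (adjusted p = 0.0645), and Hacd4 at 163 and 159 CPM against 2.33 and 4.13 CPM (adjusted p = 0.0506).

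Sequence upstream of the RefSeq start site is shown for a leading rise, a leading fall and a pair of neighbours that moved together, since CRISPR activation acts at promoters. Each runs 250 bases up to the base before the start, on the gene's strand, in the RefSeq table on GRCm38.p6. Capitals mark AGATAA, a core that GATA factors bind, read on both strands. Frmd5 lies at chr2:121807058-121807307 (minus strand), Cck at chr9:121495695-121495944 (minus strand) and Tmem176a at chr6:48841233-48841482 (plus strand).
Frmd5: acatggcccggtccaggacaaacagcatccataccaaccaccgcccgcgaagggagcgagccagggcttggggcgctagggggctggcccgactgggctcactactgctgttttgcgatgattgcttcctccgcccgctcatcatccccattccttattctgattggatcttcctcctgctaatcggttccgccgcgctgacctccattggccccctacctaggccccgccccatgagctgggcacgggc
Cck: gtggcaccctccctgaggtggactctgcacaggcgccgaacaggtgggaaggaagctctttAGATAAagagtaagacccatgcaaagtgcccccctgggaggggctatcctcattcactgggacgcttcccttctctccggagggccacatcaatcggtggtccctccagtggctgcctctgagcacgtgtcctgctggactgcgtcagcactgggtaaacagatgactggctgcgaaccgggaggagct
Tmem176a: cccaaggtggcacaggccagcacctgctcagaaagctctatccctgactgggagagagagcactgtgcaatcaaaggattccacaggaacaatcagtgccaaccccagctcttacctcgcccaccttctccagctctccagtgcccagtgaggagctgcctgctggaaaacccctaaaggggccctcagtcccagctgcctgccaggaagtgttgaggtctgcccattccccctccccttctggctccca

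Among these windows, only that of Cck held AGATAA. In RefSeq windows of this length AGATAA occurred in 9.99% of all 32851 promoters and in 6.02% of those of genes tested. It occurred in 6.45% of the 93 promoters matched to called rises (68 of 107 genes matched) and in 10.4% of the 115 matched to called falls (96 of 130 genes). AGGTGT, a T-box core, occurred in 11.8%, 9.59%, 6.45% and 6.09% of the same sets. A match or its absence in these windows is a description of the letters only.

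Tmem176a and Tmem176b, which encode a pair of related membrane proteins, lie head to head, with RefSeq starts between 109 and 668 bases apart. A start of Tmem176b at 48841374 falls inside the Tmem176a window printed above. Tmem176b was at 4.63 and 4.79 CPM in fibroblasts and at 320 and 210 CPM in late cells (log2 fold change 5.81 ± 0.34, edgeR adjusted p = 0.0240). Tmem176a was at 3.59 and 3.41 CPM against 214 and 138 CPM (5.65 ± 0.33, adjusted p = 0.0240). Both late libraries were high for both genes, and so were both early ones. The annotated genes overlap, and without a known strand setting their reads cannot be told apart.

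Of 25 heart transcription factors tested, 7 rose and 0 fell, against 0.641% and 0.779% of all genes, and 16 agreed in both late libraries as higher with 0 agreeing as lower. The list's median log2 fold change was 2.21, beside 0.11 over all genes, and its median difference was nearly the same in late replicate 1 (2.27) and late replicate 2 (2.15). The list was composed with earlier results of these libraries known, so its direction is not independent evidence.

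Gata4, a zinc finger factor needed for heart tube formation (ENSMUSG00000021944, chromosome 14, 63198922 to 63271692), stood at 0.168 and 0.324 CPM in fibroblasts. Late libraries were at 44.2 and 113 CPM and early ones at 19.8 and 17.8 CPM, so the 3 groups did not overlap and both late libraries were the highest (late against fibroblast 8.28 ± 0.71, edgeR adjusted p = 0.0311). Gata6, its relative in heart and endoderm, was at 0.739 and 0.853 CPM against 80.8 and 92.7 CPM, while early cells spanned 66.1 and 165 CPM (6.76 ± 0.58, adjusted p = 0.0311). The antisense neighbour of Gata6, 1010001N08Rik, was called as well, with 3 fibroblast counts against 5.88 and 8.59 CPM (ratio 159, exact 95% counting interval 54.2 to 776). Tbx2, a T-box repressor of chamber genes, was at 0.537 and 0.588 CPM against 17.2 and 15.8 CPM (4.86 ± 0.43, adjusted p = 0.0317). Prdm6, a repressor of vascular smooth muscle, was at 0.302 and 0.294 CPM against 45.4 and 25.4 CPM (6.87 ± 0.47, adjusted p = 0.0294). The cofactors that bind GATA factors rose less: Zfpm1 went from 10.2 and 13.1 CPM to 56.1 and 51.7 CPM (2.21 ± 0.26, adjusted p = 0.0439), and Zfpm2 from 10.3 and 10.1 CPM to 38.5 and 39.9 CPM (1.94 ± 0.21, adjusted p = 0.0364). The 2 late libraries differed by less than 10% for both cofactors.

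Hand1, a factor of the heart and of extraembryonic mesoderm, had another course. It was at 0.101 and 0.0588 CPM in fibroblasts and still at 0.0891 and 0.142 CPM in early cells, at or near the floor, and at 22.3 and 5.84 CPM in late cells (7.39 ± 1.02, edgeR adjusted p = 0.0485). Late replicate 1, not the library rich in heart muscle transcripts, was the higher of the 2.

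Other heart regulators were higher in both late libraries and missed the test. Hand2, of the ventricles, was at 45.0 and 52.4 CPM in late cells against 1.38 and 1.41 CPM in fibroblasts (adjusted p = 0.0645). Tbx20, a T-box factor of the heart tube, was at 89.9 and 114 CPM against 0.839 and 1.29 CPM (adjusted p = 0.0564). Gata5 had 0 fibroblast counts and was at 0.834 and 1.46 CPM in late cells, at least 25.7-fold higher against 3 counts over the fibroblast group (adjusted p = 0.0608). Smarcd3, a chromatin remodelling subunit of heart development, was at 59.3 and 64.2 CPM against 22.3 and 27.8 CPM (adjusted p = 0.0617). The late libraries were within 2-fold of each other for these 4 genes. They were not for the next 4, all higher than fibroblasts in both. Nkx2-5 was at 6.5 and 71.9 CPM against 0.0336 and 0.147 CPM, and Tbx5 at 8.0 and 41.4 CPM with 3 fibroblast counts. Myocd, a coactivator of smooth and heart muscle genes, was at 1.83 and 49.4 CPM against 0.101 and 0.206 CPM (adjusted p = 0.0781). Isl1, of second heart field progenitors, went the other way between the late libraries, at 6.34 and 0.758 CPM against 0.101 and 0.0294 CPM (adjusted p = 0.0760). Mef2c did not agree, at 12.4 and 45.0 CPM against 14.3 and 22.7 CPM (0.63 ± 0.78, adjusted p = 0.592). Nkx2-5, Tbx5 and Myocd were thus higher in the library that also held adult heart muscle transcripts, whose part in these 3 values was not tested.

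Among 18 progenitor surface and mesoderm genes tested, 1 rose and 0 fell. Of the 18, 10 agreed as higher and 2 as lower, beside 12.3% and 9.01% of all genes. The riser was Osr1, a factor of intermediate and lateral mesoderm, at 8.80 and 13.3 CPM in fibroblast libraries and 118 and 63.3 CPM in late cells (3.04 ± 0.40, edgeR adjusted p = 0.0471). Kit, a stem cell factor receptor, had 1 fibroblast count and was at 9.38 and 10.9 CPM in late cells (ratio 655, exact 95% counting interval 117 to 25910). Tcf21, a factor of epicardial and fibroblast lineages, had 0 counts in both fibroblast and both early libraries and was at 4.0 and 9.60 CPM in late cells, at least 156-fold higher. T, the brachyury factor of early mesoderm, also had 0 counts in those 4 libraries and was at 1.04 and 0.534 CPM, at least 15.7-fold higher. Neither Kit, Tcf21 nor T passed the test (adjusted p = 0.0523, 0.0641 and 0.0758), although both late libraries held each of them. Eya1, a cofactor of organ development, was lower in both, at 1.25 and 0.955 CPM against 7.12 and 6.21 CPM (adjusted p = 0.0714).

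Of 14 mesothelial and epicardial genes, 10 agreed as higher and 1 as lower by the 2-fold rule, and 2 rose, Podxl and Krt19. Krt19, a keratin of mesothelium and simple epithelia, was at 3.29 and 2.88 CPM in fibroblast libraries and 202 and 225 CPM in late cells (6.11 ± 0.81, edgeR adjusted p = 0.0471). Aldh1a2, the retinoic acid synthesising enzyme of the epicardium, was at 1.07 and 0.441 CPM against 9.21 and 10.6 CPM (adjusted p = 0.0559). Lrrn4, a mesothelial surface protein, had 0 fibroblast counts and was at 1.38 and 2.78 CPM, at least 47.1-fold higher (adjusted p = 0.0605). Krt19 and Aldh1a2 were at similar levels in both late libraries. Gpm6a, Wt1 and Upk3b were several-fold higher in late replicate 2 (0.417 and 4.38, 0.834 and 7.13, and 1.08 and 13.7 CPM), and the list's median differences were 1.99 and 4.39 in late replicates 1 and 2.

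Simple epithelial genes are the keratins, cadherin and claudins of single-layered epithelia, and of 19 tested members 15 agreed as higher and 0 as lower by the 2-fold rule. Krt8, Krt19 and Cdh1 rose. The list's median log2 fold change was 5.42, or 5.25 with members that had no fibroblast counts set to their lower bound. Krt8, an intermediate filament keratin (ENSMUSG00000049382, chromosome 15, 101996698 to 102004482), stood at 0.436 and 0.294 CPM in fibroblast libraries and 156 and 46.3 CPM in late cells (8.10 ± 0.81, edgeR adjusted p = 0.0349). Cdh1, E-cadherin, had 2 fibroblast counts and was at 20.1 and 6.6 CPM (ratio 384, exact 95% counting interval 106 to 3174, adjusted p = 0.0468). Krt18, the partner of Krt8, was at 85.7 and 27.2 CPM against 1.01 and 0.0882 CPM (adjusted p = 0.0617). All 3 were still below 1.4 CPM in both early libraries. The tight junction claudins Cldn4 and Cldn6 had 0 counts in all fibroblast and early libraries and were at 9.30 and 3.0 CPM, and 6.13 and 1.66 CPM, in late cells, at least 118-fold and 73.5-fold higher (adjusted p = 0.0671 and 0.0751). Epcam, an epithelial adhesion molecule, was at 4.46 and 1.83 CPM against 0.0671 and 0.0882 CPM (adjusted p = 0.0508). Krt19 was different within the list, since it was already at 444 and 105 CPM in early cells.

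Imprinted genes, which are expressed from a single parental copy and many of which promote fetal growth, showed a like pattern. Of 24 tested, 3 rose and 0 fell, 13 agreed as higher and 2 as lower, and the median log2 fold change was 2.55. Slc38a4, an amino acid transporter of placenta and liver (ENSMUSG00000022464, chromosome 15, 96994820 to 97055956), stood at 0.638 and 0.412 CPM in fibroblast libraries and 162 and 58.6 CPM in late cells (7.71 ± 0.76, edgeR adjusted p = 0.0349). Nnat, neuronatin, was at 1.65 and 1.74 CPM against 101 and 32.5 CPM (5.29 ± 0.65, adjusted p = 0.0465). Igf2, a fetal growth factor, was at 19.2 and 8.03 CPM against 425 and 200 CPM (4.52 ± 0.62, adjusted p = 0.0485). Both late libraries were above every other library for the 3 genes, and early cells were at or under 3.52 CPM for each. H19, a noncoding RNA beside Igf2, was at 38.6 and 4.68 CPM in fibroblasts, 1.56 and 7.15 CPM in early cells and 2394 and 751 CPM in late cells (adjusted p = 0.0769). Peg3, a zinc finger protein, was at 16.6 and 10.7 CPM against 636 and 211 CPM, and Peg10, a retrotransposon-derived gene of the placenta, at 14.9 and 21.7 CPM against 699 and 202 CPM (both adjusted p = 0.0556). Phlda2, a placental growth suppressor, had 0 fibroblast counts and was at 8.96 and 2.13 CPM, at least 104-fold higher (adjusted p = 0.0594). Sgce was lower in both late libraries, at 22.7 and 19.3 CPM against 67.7 and 72.1 CPM (adjusted p = 0.0758).

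Genes of pluripotent and oncofetal cells added low levels in both late libraries. Of 14 tested, 0 were called, 6 agreed as higher and 1 as lower. Lin28a, which blocks let-7 processing, had 1 fibroblast count and was at 12.5 and 3.59 CPM in late cells (ratio 457, exact 95% counting interval 81.6 to 18090, edgeR adjusted p = 0.0608). Pou5f1, which encodes the pluripotency factor Oct4, had 0 counts in the fibroblast and early libraries and was at 3.13 and 0.983 CPM, at least 39.2-fold higher (adjusted p = 0.0768). Its near-identical pseudogene copies make that count uncertain. Sall4 had 3 fibroblast counts and was at 7.0 and 2.70 CPM, with 0 in early cells. Sox2 was the member that agreed as lower, at 72.4 and 25.9 CPM in fibroblast libraries and 9.67 and 1.29 CPM in late cells (adjusted p = 0.115). Of 18 extraembryonic endoderm genes, Gata4, Gata6 and Foxa2 rose, the last from 0.302 and 0.176 CPM to 44.9 and 29.3 CPM (7.26 ± 1.02, adjusted p = 0.0485). In that list 7 agreed as higher and 3 as lower. Lama1, of the embryonic basement membrane, was at 33.4 and 9.49 CPM against 0.504 and 0.647 CPM (adjusted p = 0.0546). Afp, the fetal liver and yolk sac albumin, was at 13.5 and 4.35 CPM against 0.0671 and 0.235 CPM (adjusted p = 0.0671), and both genes were under 0.1 CPM in early cells.

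Across the simple epithelial, imprinted and oncofetal lists, the members that agreed as higher were mostly lower in late replicate 2 than in late replicate 1. For these 34 genes the level in late replicate 2 had a median of 33.7% of that in late replicate 1, with a range from 23.8% to 582%, and 25 of the 34 lay between 20% and 50%. By list these were 9 of 15 simple epithelial, 11 of 13 imprinted and 5 of 6 oncofetal members. Over all 2046 genes that agreed as higher the median was 93.4%, and 15.3% lay between 20% and 50%. In 23 of the 34 both early libraries were under 10% of late replicate 1, against 10.5% of the 2046. The 3 lists were put together after their values were seen, so this is a description and no test was made. The 9 members outside that range, all above it, were Krt19, Cldn3, Muc1, Grhl2, Lsr, Pard6b, Mycn, Zim1 and Rtl1.

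**Figure D3:**
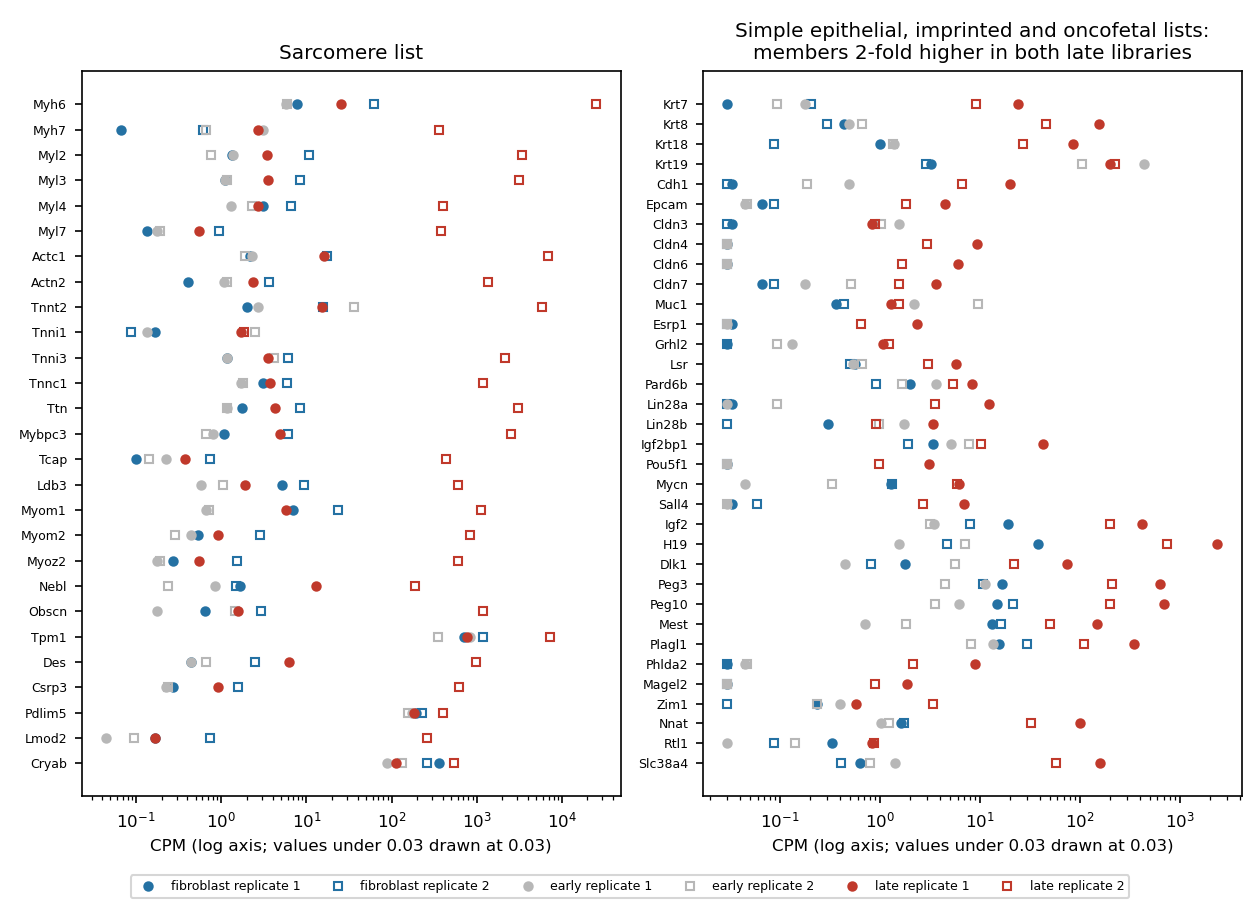
CPM per library (log axis, symbols as in the plot of the largest called genes) for the 27 sarcomere genes on the left and, on the right, the 34 members of the simple epithelial, imprinted and oncofetal lists that were at least 2-fold higher in both late libraries. On the left late replicate 2 alone lies far to the right of the other 5 libraries for most genes. On the right both late libraries lie to the right of both fibroblast libraries, with late replicate 1 the higher late library for most. For Krt19, Cldn3 and Muc1 the higher early library lies to the right of late replicate 1.

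Heart muscle genes did not agree between the late libraries. Of 27 sarcomere genes 0 passed the test (edgeR; 4 agreed as higher), although all 27 had a fitted value above fibroblasts and the median log2 fold change was 8.26. That median came from late replicate 2, where the median difference from fibroblasts was 9.67, against 0.19 in late replicate 1. Myh6, the main adult cardiac myosin heavy chain, was at 7.82 and 62.8 CPM in fibroblast libraries and 25.8 and 25360 CPM in late cells, so late replicate 1 lay between the 2 fibroblast libraries (adjusted p = 0.137). The 4 sarcomere genes that agreed were Nebl, Myh7, Des and Tnni1. Nebl, a Z-disc protein, was at 1.65 and 1.47 CPM against 13.1 and 190 CPM (adjusted p = 0.0768), Myh7, the slow myosin, at 0.0671 and 0.618 CPM against 2.67 and 362 CPM (adjusted p = 0.10), and Des, desmin, at 0.436 and 2.47 CPM against 6.17 and 979 CPM (adjusted p = 0.102). Tnni1, the fetal troponin I, was the exception to the imbalance, at 0.168 and 0.0882 CPM against 1.71 and 1.85 CPM (adjusted p = 0.136).

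Calcium handling and energy genes of heart muscle followed the same split. Of 19 calcium handling and channel genes, 0 were called, 1 agreed as higher and 1 as lower, with median differences of -0.38 in late replicate 1 and 5.69 in late replicate 2. Hcn4, the pacemaker channel, agreed as higher, at 0.369 and 0.294 CPM against 4.33 and 17.4 CPM (edgeR adjusted p = 0.0656). Gja1, the gap junction protein connexin 43, agreed as lower, at 1395 and 1348 CPM against 49.9 and 332 CPM (adjusted p = 0.109). Ryr2, the calcium release channel, was at 0.571 and 3.65 CPM against 5.84 and 1212 CPM (adjusted p = 0.111). Of 28 energy genes 0 were called and 4 agreed as higher (Idh2, Eno3, Ldhb and Cpt1b), with medians of -0.24 and 4.94. Nppa, atrial natriuretic peptide, was at 1.29 and 1352 CPM in late cells.

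Low levels of the same genes were also counted in the other libraries. For 22 sarcomere genes at 200 CPM or more in late replicate 2 and at least 100 times late replicate 1, the level in fibroblast replicate 2 had a median of 0.268% of that in late replicate 2, with late replicate 1 at 0.157% and fibroblast replicate 1 at 0.0438%. For 5 calcium handling genes chosen the same way the medians were 0.299%, 0.201% and 0.0529%, and for 10 energy genes 0.408%, 0.143% and 0.149%. In early replicates 1 and 2 the sarcomere medians were 0.0455% and 0.0437%. The choice of genes itself capped the percentage for late replicate 1 and set no cap for the fibroblast and early libraries. The late replicate 1 medians therefore cannot be ranked against the others. Carry-over of reads between libraries as a source of these levels was not tested.

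**Figure D4:**
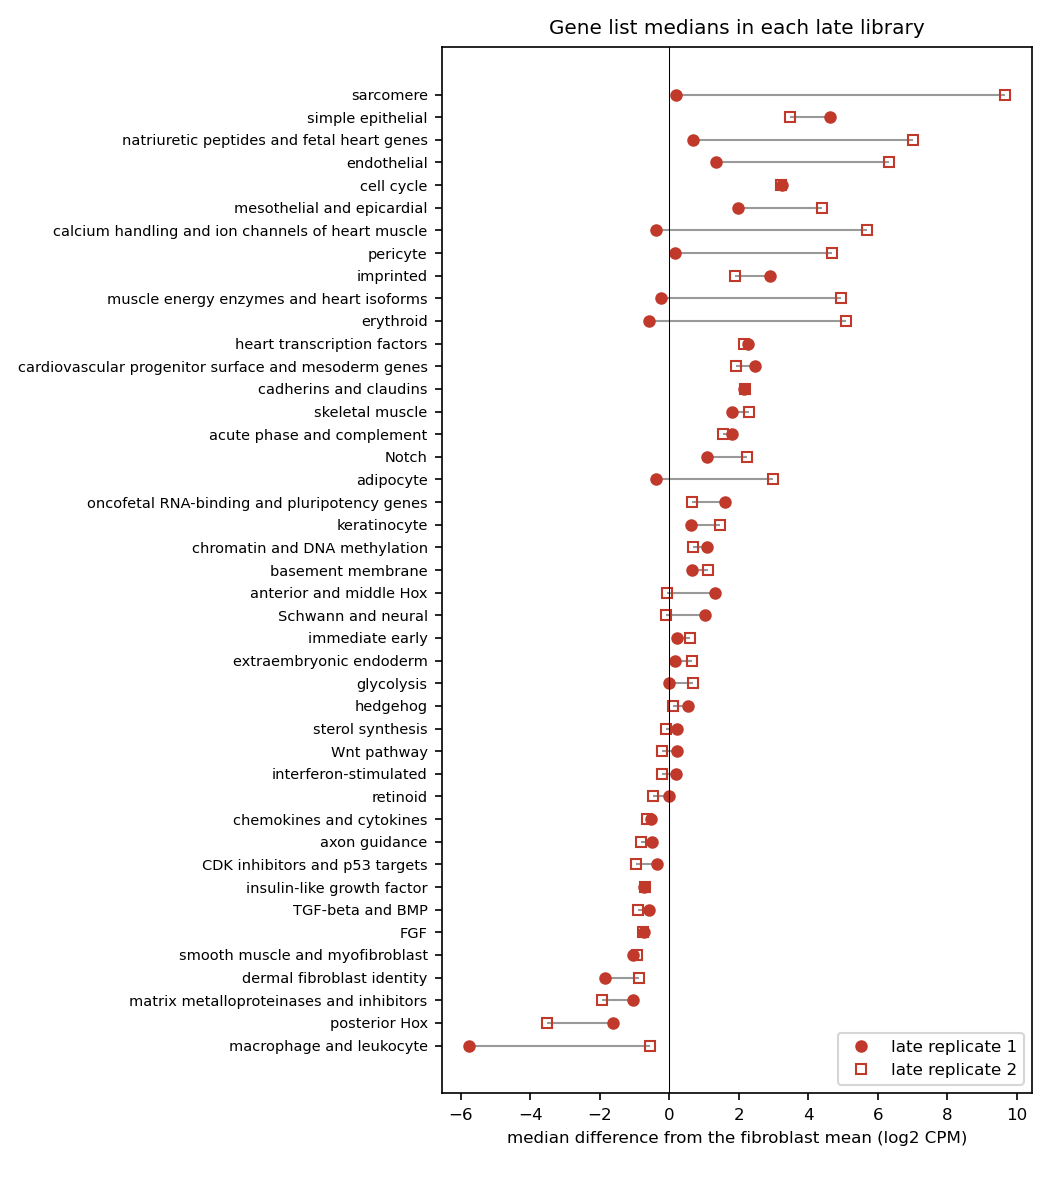
For each of 43 gene lists, the median difference from the fibroblast mean (log2 CPM) in late replicate 1 (filled circle) and late replicate 2 (open square), joined by a line. Sarcomere, endothelial, erythroid and macrophage lists have long lines, with late replicate 2 to the right; cell cycle and heart transcription factor lists have nearly coinciding symbols.

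Summed over their lists, markers of endothelial, red blood and fat cells were also higher in late replicate 2 than in late replicate 1. The Schwann and neural list had the other direction, with summed levels of 145 and 90.3 CPM in late cells and a median of -0.82 for the log2 difference of late replicate 2 from late replicate 1. In bulk RNA fewer cells of a type and less RNA per cell cannot be told apart. Of 14 endothelial genes 0 were called and 7 agreed as higher, with median differences of 1.34 in late replicate 1 and 6.33 in late replicate 2. Plvap, of fenestrated vessels, was at 0.302 and 0.294 CPM in fibroblast libraries and 4.54 and 23.2 CPM in late cells (edgeR adjusted p = 0.0608). Cdh5, the endothelial cadherin, was at 0.504 and 1.0 CPM against 8.71 and 174 CPM (adjusted p = 0.0726), and Kdr, a VEGF receptor, at 0.571 and 1.21 CPM against 10.4 and 170 CPM (adjusted p = 0.0758). Of 19 macrophage and leukocyte genes 0 were called, 0 agreed as higher and 3 as lower (Cd68, Mpeg1 and Lyz2). Their summed level over the list was 366 and 1502 CPM in fibroblast libraries and 73.8 and 353 CPM in late cells. The erythroid list's summed level was 1096 CPM in late replicate 2 and between 22.8 and 107 CPM elsewhere, and the adipocyte list's 554 CPM against 24.3 to 47.3 CPM. Of 4 adipocyte genes tested, 2 were more than 4-fold higher in late replicate 2 than in late replicate 1, Fabp4 and Plin4. Fabp4, at 0.709 and 246 CPM in late cells, is also on the endothelial list, while Pparg was at 8.50 and 8.34 CPM. Car2, a carbonic anhydrase of red cells and many epithelia, was the only erythroid list member that rose. It was at 0.101 and 0.176 CPM against 11.4 and 7.02 CPM (6.0 ± 0.69, adjusted p = 0.0434), and was higher in late replicate 1.

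Among 10 pericyte genes 2 rose, Rgs5 and Mcam, and 3 agreed as higher. Mcam, an adhesion molecule of vessel walls (ENSMUSG00000032135, chromosome 9, 44134469 to 44142727), stood at 2.12 and 1.32 CPM in fibroblasts, 7.53 and 6.10 CPM in early cells and 69.9 and 76.6 CPM in late cells (5.41 ± 0.36, edgeR adjusted p = 0.0294). Both late libraries were near each other and well above the early ones. The defining pericyte channel genes did not follow. Kcnj8 was at 0.917 and 30.1 CPM and Abcc9 at 0.50 and 182 CPM in late cells, high in late replicate 2 alone.

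**Figure D5:**
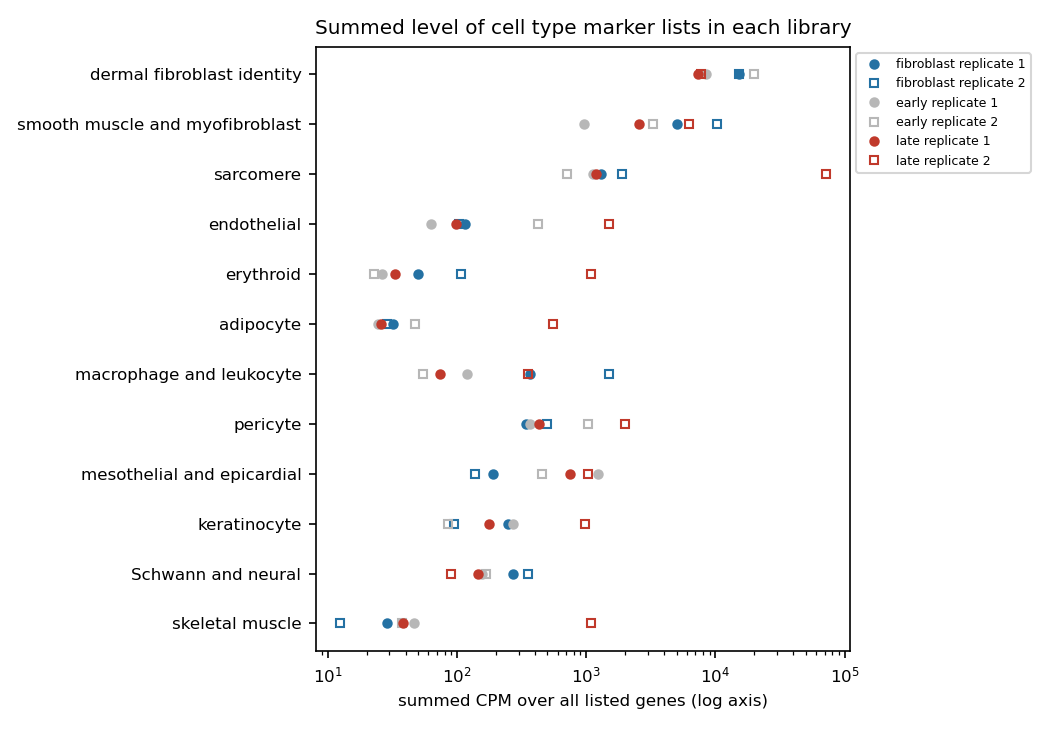
Summed CPM over all listed genes of 12 cell type marker lists in each of the 6 libraries (log axis, symbols as in the plot of the largest called genes). Late replicate 2 is the highest library for the sarcomere, endothelial, erythroid, adipocyte, pericyte, keratinocyte and skeletal muscle lists. The keratinocyte sum, 975 CPM against 177 CPM in late replicate 1, does not stand for most of its members. Only 1 of its 9 tested genes was more than 4-fold higher in late replicate 2, and their median log2 difference from late replicate 1 was -0.08. Both late libraries are below both fibroblast libraries for the dermal fibroblast list. Lists share genes: Des counts in the sarcomere, pericyte, smooth muscle and skeletal muscle sums. In late replicate 2 it was at 979 CPM, and the skeletal muscle sum was 1084 CPM.

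Dermal fibroblast genes were mostly lower in late cells, but few passed the test. Of 30 members 1 fell and 0 rose, 13 agreed as lower and 1 as higher, and the median log2 fold change was -1.19. Summed over the list, the level was 15160 and 15265 CPM in fibroblasts against 7274 and 7703 in late cells. S100a4, a calcium-binding protein of motile mesenchymal cells, fell from 1452 and 939 CPM to 110 and 68.1 CPM (-3.75 ± 0.40, edgeR adjusted p = 0.0379). Twist2, a dermal factor, was at 118 and 59.8 CPM against 7.67 and 4.13 CPM (adjusted p = 0.0541), and Snai2 at 135 and 203 CPM against 22.5 and 11.9 CPM (adjusted p = 0.0608). Both late libraries were low for these regulators. The collagens that define the fibroblast did not agree. Col1a1 was at 1471 and 3296 CPM in fibroblast libraries and 1226 and 1208 CPM in late cells (adjusted p = 0.240), and Col3a1 at 1077 and 1300 CPM against 596 and 898 CPM (adjusted p = 0.813). Postn, a matricellular protein of heart valves and wounds, agreed as higher, at 0.638 and 1.68 CPM against 85.5 and 71.9 CPM (adjusted p = 0.131). Of 20 smooth muscle and myofibroblast genes 0 were called, 1 agreed as higher and 3 as lower, beside 12.3% and 9.01% of all genes. Cald1, caldesmon, was at 2467 and 3947 CPM against 449 and 171 CPM (adjusted p = 0.0755). Acta2 was at 590 and 2714 CPM against 814 and 717 CPM (adjusted p = 0.314).

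Matrix proteases and their inhibitors were lower more often than higher. Of 21 metalloproteinase, inhibitor and plasminogen activator genes 1 fell and 0 rose, and 9 agreed as lower and 1 as higher. Plau, urokinase, was at 115 and 74.9 CPM in fibroblasts against 6.59 and 3.88 CPM in late cells (-4.19 ± 0.42, edgeR adjusted p = 0.0349). Timp2, a metalloproteinase inhibitor, was at 5161 and 4796 CPM against 1006 and 570 CPM (adjusted p = 0.0594). Basement membrane genes had the other direction: of 26, 1 rose and 0 fell, and 8 agreed as higher and 0 as lower. Col4a6, a type IV collagen chain of epithelial and smooth muscle membranes, rose from 1.65 and 2.5 CPM to 171 and 76.0 CPM (5.89 ± 0.61, adjusted p = 0.0364). Npnt, nephronectin, was at 4.87 and 5.74 CPM against 107 and 66.1 CPM (adjusted p = 0.0522), and Lama5, a laminin chain, at 5.44 and 12.8 CPM against 204 and 278 CPM (adjusted p = 0.0585). Of 18 cadherins and claudins Cdh1 was the 1 called, and 9 agreed as higher and 2 as lower.

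Hox genes are given by position along the body axis, and the difference between positions was not tested. Of 15 posterior Hox genes 2 fell and 0 rose, 10 agreed as lower and 2 as higher, with median differences of -1.62 in late replicate 1 and -3.51 in late replicate 2. Hoxb13, the most posterior member of the B cluster (chromosome 11, 96194316 to 96197447), stood at 66.3 and 79.1 CPM in fibroblast libraries and 0.459 and 0.197 CPM in late cells (-7.82 ± 0.55, edgeR adjusted p = 0.0303). In the C cluster, Hoxc12 was at 99.2 and 109 CPM against 1.63 and 0.534 CPM (-6.61 ± 0.86, adjusted p = 0.0471). The neighbours Hoxc13 and Hoxc11 were lower in both late libraries (adjusted p = 0.0508 and 0.0594). Hoxd13 and Hoxd11 agreed as higher, at 3.67 and 0.814 CPM, with 1 fibroblast count for Hoxd13, and at 3.96 and 0.899 CPM against 0.168 and 0.0882 CPM. For 8 of the 15 posterior genes late replicate 1 was more than 4-fold above late replicate 2, and for 0 the reverse held. Of 20 anterior and middle Hox genes 2 rose, and 4 agreed as higher and 0 as lower. Their median differences were 1.33 in late replicate 1 and -0.05 in late replicate 2, and 7 of the 20 were more than 4-fold above late replicate 2 in late replicate 1. Hoxa3 was at 1.28 and 0.882 CPM against 23.5 and 12.7 CPM (4.06 ± 0.53, adjusted p = 0.0468), and Hoxa4 at 0.436 and 0.471 CPM against 12.6 and 8.26 CPM (4.51 ± 0.53, adjusted p = 0.0439). Hoxa2 and Hoxa5 agreed without passing (adjusted p = 0.0556 and 0.0564). The annotated Hoxa3 gene spans Hoxa4, and antisense transcripts lie in these clusters, so counts of single Hox genes are uncertain where the strand setting is unknown.

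Several secreted signals of the skin fibroblast fell. In the Wnt list of 39 genes 3 fell and 0 rose, and 12 agreed as lower and 9 as higher, so the list's median was near 0 (0.04). Dkk2, a Wnt antagonist (ENSMUSG00000028031, chromosome 3, 132085292 to 132180304), fell from 2246 and 1919 CPM to 30.8 and 23.0 CPM (-6.27 ± 0.39, edgeR adjusted p = 0.0240). Rspo2, which strengthens Wnt signals, fell from 39.2 and 94.5 CPM to 0.417 and 0.197 CPM (-7.79 ± 0.71, adjusted p = 0.0325), and the ligand Wnt5a from 337 and 283 CPM to 63.0 and 46.3 CPM (-2.5 ± 0.27, adjusted p = 0.0364). The R-spondin receptor Lgr5 was lower in both late libraries, at 57.2 and 46.0 CPM against 2.46 and 0.730 CPM (adjusted p = 0.0508). Receptors Fzd4 and Fzd6 agreed as higher, Fzd4 at 6.08 and 3.74 CPM against 46.9 and 84.8 CPM (adjusted p = 0.0521).

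In the TGF-beta and BMP list of 37 genes 3 fell and 0 rose, and 11 agreed as lower and 1 as higher. Among those that fell, the ligand Bmp7 went from 79.8 and 48.2 CPM to 3.58 and 1.94 CPM (-4.54 ± 0.47, edgeR adjusted p = 0.0364). Inhba, an activin subunit, fell from 373 and 470 CPM to 103 and 84.4 CPM (-2.17 ± 0.27, adjusted p = 0.0468). Bmp4 was higher in both late libraries by a smaller margin, at 11.7 and 25.7 CPM against 84.6 and 50.8 CPM (adjusted p = 0.0866). Of 20 FGF genes 1 fell: Fgf2, at 264 and 195 CPM in fibroblasts against 24.0 and 20.2 CPM in late cells (-3.38 ± 0.29, adjusted p = 0.0304). Another 3 agreed as lower and 2 as higher, beside 9.01% and 12.3% of all genes. Fgf10, a ligand of limb, lung and second heart field, was at 293 and 283 CPM against 11.1 and 1.35 CPM (adjusted p = 0.0654), lower in both late libraries but more so in late replicate 2.

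Of 15 Notch genes 1 rose and 0 fell, and 6 agreed as higher and 0 as lower. The receptor Notch1 was at 12.5 and 12.6 CPM in fibroblasts, 16.0 and 13.7 CPM in early cells and 42.0 and 61.8 CPM in late cells (2.05 ± 0.29, edgeR adjusted p = 0.0485). Its ligand Jag2 was at 0.671 and 1.09 CPM against 7.88 and 36.4 CPM (adjusted p = 0.0622) and its target Hey1 at 1.54 and 1.59 CPM against 4.79 and 12 CPM (adjusted p = 0.0803). All 3 were higher in late replicate 2, the library with endothelial transcripts, whose part in these values was not tested.

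Of 18 retinoid genes 3 agreed as higher and 5 as lower, beside 12.3% and 9.01% of all genes. Rarb, a retinoic acid receptor that is itself a retinoic acid target, was at 1.04 and 0.529 CPM against 7.75 and 14.2 CPM (edgeR adjusted p = 0.0564). The retinoic acid binding proteins were lower in both late libraries: Crabp1 was at 3015 and 328 CPM against 8.63 and 1.35 CPM (adjusted p = 0.0646) and Crabp2 at 36.8 and 40.5 CPM against 5.42 and 1.66 CPM (adjusted p = 0.0617). Of 36 axon guidance genes 2 fell and 0 rose, and 11 agreed as lower and 4 as higher. Sema3c, a semaphorin of the outflow tract, fell from 408 and 413 CPM to 23.6 and 18.9 CPM (-4.27 ± 0.59, adjusted p = 0.0485), and Slit2, a repellent ligand, from 795 and 1593 CPM to 74.9 and 52.3 CPM (-4.23 ± 0.51, adjusted p = 0.0465). The Slit receptor Robo1 was at 67.8 and 77.0 CPM against 14.8 and 7.16 CPM (adjusted p = 0.0556). Dcc, the netrin receptor, had 1 late count and was at 2.25 and 1.21 CPM in fibroblasts, a ratio of 101 (exact 95% counting interval 17.7 to 4023). In the insulin-like growth factor list of 15 genes Igf2 alone was called. Of the 15, 2 agreed as higher and 3 as lower, beside 12.3% and 9.01% of all genes. Pappa2, a protease that frees these factors from their carriers, was at 3.46 and 7.91 CPM against 0.417 and 0.197 CPM (adjusted p = 0.0608).

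On cell cycle genes the late libraries agreed evenly. Of 35 genes 30 agreed as higher and 1 as lower, against 12.3% and 9.01% of all genes, although 0 passed the test (edgeR adjusted p from 0.0617 upward). The median differences were 3.23 and 3.22 in late replicates 1 and 2, and for 0 genes were the 2 more than 4-fold apart. Mcm6, of the replication helicase, was at 19.1 and 15.1 CPM in fibroblast libraries and 166 and 137 CPM in late cells (adjusted p = 0.0617). Top2a, a topoisomerase that untangles replicated DNA, was at 22.6 and 15.9 CPM against 291 and 286 CPM (adjusted p = 0.0656), and Mki67 at 11.8 and 9.97 CPM against 180 and 203 CPM (adjusted p = 0.0727). Early cells spanned the late values, with Top2a at 613 and 124 CPM. Ccnd2, a cyclin of early G1, was the gene that agreed as lower.

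Inhibitors of the cell cycle moved in both directions. Of 22 CDK inhibitors and p53 targets 1 rose and 1 fell, and 7 agreed as lower and 2 as higher. Cdkn2b, which encodes p15, fell from 211 and 232 CPM to 10.9 and 3.57 CPM (-4.95 ± 0.67, edgeR adjusted p = 0.0485). Its neighbour Cdkn2a, the locus of p16 and p19ARF, stood at 569 and 568 CPM against 29.4 and 10.9 CPM (adjusted p = 0.0508), and Cdkn1a, p21, at 622 and 609 CPM against 183 and 112 CPM (adjusted p = 0.0523). Cdkn1b, p27, rose from 31.9 and 29.4 CPM to 129 and 102 CPM (1.92 ± 0.28, adjusted p = 0.0493). Both late libraries agreed at each of the 4. Chromatin and DNA methylation genes had 0 calls of 26, with 10 agreeing as higher and 0 as lower. The DNA methyltransferase Dnmt3a was at 23.0 and 26.4 CPM against 69.8 and 144 CPM (adjusted p = 0.0608), Tet3, a DNA demethylase, at 22.6 and 20.1 CPM against 53.7 and 67.5 CPM (adjusted p = 0.0519), and Ezh2, of the Polycomb complex, at 12.8 and 8.91 CPM against 73.2 and 47.5 CPM (adjusted p = 0.0610).

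Acute phase genes rose at 3 of 17 members and fell at 0, and 7 agreed as higher and 2 as lower. Cp, ceruloplasmin, a copper-carrying plasma protein (chromosome 3, 19957054 to 20009145), stood at 20.8 and 34.0 CPM in fibroblast libraries and 737 and 558 CPM in late cells (4.56 ± 0.39, edgeR adjusted p = 0.0304). Lcn2, an iron-siderophore binder, was at 0.940 and 0.471 CPM against 34.6 and 43.7 CPM (5.79 ± 0.52, adjusted p = 0.0325), and Hp, haptoglobin, at 0.302 and 0.735 CPM against 29.9 and 33.4 CPM (5.91 ± 0.69, adjusted p = 0.0439). The late libraries were close to each other for all 3. Of 20 chemokines and cytokines 1 rose, and 4 agreed as higher and 7 as lower. Il33, an alarmin of barrier and stromal cells, rose from 3.53 and 2.41 CPM to 141 and 176 CPM (5.74 ± 0.50, adjusted p = 0.0321), while its receptor Il1rl1 fell, from 1218 and 510 CPM to 22.5 and 26.3 CPM (-5.15 ± 0.69, adjusted p = 0.0485). Tslp, a cytokine of barrier tissues, was at 159 and 21.8 CPM against 0.875 and 0.758 CPM (adjusted p = 0.0559).

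Several lists held 0 called genes and stayed near the background in agreement. Of 32 interferon-stimulated genes 5 agreed as higher and 3 as lower, of 21 glycolysis genes 1 and 1, of 21 sterol synthesis genes 0 and 1, of 12 hedgehog genes 2 and 2, and of 20 immediate early genes 4 and 1. Their median log2 fold changes ran from 0.04 to 0.44, beside 0.11 over all genes. Ifit2, an interferon-induced RNA-binding protein, was at 169 and 96.6 CPM against 31.2 and 22.1 CPM (edgeR adjusted p = 0.0556). Gas1, a hedgehog coreceptor, was at 64.8 and 106 CPM against 267 and 330 CPM (adjusted p = 0.0610). Of the keratinocyte, Schwann and neural, and skeletal muscle lists 9, 10 and 7 genes were tested, and 0 were called. Here agreement was not near the background in each list. Of the 9 keratinocyte genes 4 agreed as higher and 0 as lower, and of the 7 skeletal muscle genes 4 and 0, beside 12.3% and 9.01% of all genes. Of the 10 Schwann and neural genes 0 agreed as higher and 2 as lower. Stmn2, a neuronal tubulin regulator, was at 208 and 273 CPM in fibroblasts against 2.13 and 2.47 CPM in late cells (adjusted p = 0.0726).

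Genes that separated the 2 late libraries most are given as a description. Higher in late replicate 2 were Mb, the muscle oxygen carrier myoglobin, at 5160 against 4.42 CPM in late replicate 1, Ttn, the giant sarcomere protein, at 3095 against 4.29 CPM, and Actc1, cardiac actin, at 6843 against 16.2 CPM. Lpl, a lipase of heart and fat, was at 1579 against 14.7 CPM, and Fabp3, a fatty acid carrier, at 1218 against 10.9 CPM. Higher in late replicate 1 were Nox4, an NADPH oxidase, at 45.3 against 1.15 CPM, Hgf, a growth factor of mesenchyme, at 15.9 against 0.646 CPM, and Tll1, a protease of the developing heart septum, at 42.7 against 3.79 CPM. For Nox4 the fibroblast libraries lay between the 2 late ones, at 20.2 and 37.0 CPM, so no direction of change from fibroblasts can be read for it.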

How the data were processed

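Polyadenylated RNA of 6 libraries was sequenced, 2 per group. The authors deposited raw read counts per Ensembl gene. The submitters' processing notes name Trimmomatic 0.36, STAR 2.5.2b, featureCounts, Subread 1.5.2 and GRCm38; annotation release, strandedness and the handling of multiply mapped reads are not stated there. Symbols and positions came from GENCODE M21 on GRCm38 (48970 identifiers matched, 345 did not). Columns of late and early libraries were assigned by name, because they are not exact sample titles.

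Testing used edgeR 4.0.16 in R 4.3.3: default expression filter, TMM scaling, robust quasi-likelihood fit of 3 group means over 6 libraries (3 residual degrees of freedom, common biological coefficient of variation 48.6%) and Benjamini-Hochberg adjustment. SE was derived from the fold change and F. CPM use effective library sizes, and log2 CPM a prior count of 2. The fit was tested on simulated data. Counting intervals and floors cover counting error only; bounds use 3 counts over the group without counts.

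The 43 lists (899 symbols, 802 tested, 43 called) and the members were chosen with earlier results of these data known. Named genes were the 15 largest rises and falls among called genes with mean log2 CPM of at least 3 and no predicted gene name, the 12 highest and lowest by smallest late-to-fibroblast difference, the 12 that most separated the late libraries in each direction, per list the 4 smallest adjusted p and further called or uncounted members, and a fixed set of heart factors and cell type markers. 1010001N08Rik, Afp, Bmp4, Ccnd2, Cldn4, Cldn6, Col1a1, Col3a1, Crabp1, Crabp2, Dcc, Eya1, Fzd4, Fzd6, Gata5, Gm2115, Gpm6a, Grhl2, H19, Hoxd11, Hoxd13, Krt18, Lsr, Mki67, Muc1, Mycn, Myocd, Nppa, Npy4r, Pard6b, Peg3, Phlda2, Postn, Rtl1, Sgce, Smarcd3, Sox2, T, Tmem176a, Tnni1, Xist and Zim1 were named after their values were seen. A few genes that the rule picks are not reported here. Alternatives were RLE scaling, other filters, DESeq2 1.42.0, fewer libraries and a replicate block.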

Additional observations from a re-analysis of the deposited data

How the results depend on the processing

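All 237 called genes that could be fitted kept their direction in the alternatives run, but their number moved widely. With 237 called (107 higher, 130 lower), the count was 2495 (1261 and 1234) without the expression filter, 4683 (2462 and 2221) by DESeq2 and 1016 (540 and 476) from the late and fibroblast libraries alone. RLE scaling, a stricter filter and leaving out mitochondrial transcripts gave 256, 311 and 239. Leaving out 1 library at a time gave 0 to 1058 called genes, 0 to 809 higher and 0 to 323 lower. The count was 0 without fibroblast replicate 1 (2704 genes at an unadjusted p under 0.05) or without fibroblast replicate 2 (2319), and 603 and 734 without early replicate 1 or 2. Without late replicate 1 it was 1058 (809 higher, 249 lower) and without late replicate 2 it was 8 (8 higher, 0 lower); a group left with 1 library is assumed to vary like the others, and the cause was not tested. A 4-fold minimum for agreement left 902 higher and 581 lower genes of 2046 and 1504. The sarcomere list's median log2 fold change was -0.20 without late replicate 2. With the replicate number as a block, 9 genes were called (6 higher, 3 lower), 8 of them among the 237. Deviations of same-numbered libraries from group means correlated at 0.238 for late and fibroblast, 0.0859 for late and early and 0.121 for early and fibroblast, and the labels name no shared source. Xist was high in replicate 1 of late cells and fibroblasts but at 0.178 and 0.142 CPM in early cells, so whether the numbers pair libraries is not settled by these values. Levels under the floor of 3 counts, 0.0842 to 0.142 CPM, could not be told from 0 at this depth.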

Other observations

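Among the called falls were 7 genes that encode lysosomal proteins, a group noticed after the values were seen and therefore given as a description. Ctsl, the protease cathepsin L, was at 7182 and 3620 CPM in fibroblast libraries and 423 and 333 CPM in late cells (log2 fold change -3.84 ± 0.53, edgeR adjusted p = 0.0485). Lamp1, a lysosomal membrane protein, was at 1805 and 2031 CPM against 449 and 487 CPM (-2.03 ± 0.28, adjusted p = 0.0485). The enzymes Galc, which degrades galactosylceramide, and Aga, which cleaves glycoproteins, were at 72.4 and 96.5 CPM against 14.4 and 15.6 CPM, and at 172 and 199 CPM against 38.8 and 34.8 CPM. Glb1, the beta-galactosidase of lysosomes, was at 111 and 125 CPM against 47.3 and 37.8 CPM. Glmp and Mfsd1 fell by 1.95 and 1.74 on the log2 scale. For each of these 7 genes the early libraries lay between the fibroblast and the late ones, with Ctsl at 486 and 842 CPM, and both late libraries were below every other library.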
